A study of Rattus norvegicus with 6 samples.

Results

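The levels of 10 genes of the epidermal growth factor (EGF) family pathway were measured in rat myocardium after ischemia and reperfusion. They were taken by symbol from the expression table, and all 10 were found among its 28293 genes: the ligands Hbegf, Areg, Ereg, Btc and Nrg1, the receptors Egfr, Erbb2, Erbb3 and Erbb4, and the feedback inhibitor Errfi1. Total RNA of whole myocardial tissue was sequenced from 3 sham rats and 3 rats with myocardial ischemia/reperfusion injury (MI/RI). MI/RI meant 30 min of ligation of the left anterior descending artery and then 6 h of reperfusion before the heart was taken, and the titles of the sham samples carry the same times. All rats were male and labelled WT, and their strain and age are not given in the sources used here. The position of the tissue piece relative to the ligated artery is not given either, so the share of injured muscle in each sample is unknown.

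EGF-family ligands are mostly made as membrane-anchored precursors that metalloproteases of the ADAM family cut free. A ligand joins ERBB receptors into pairs, which switch on the Ras-ERK and PI3K-AKT kinase chains. Egfr binds Hbegf, Areg, Ereg and Btc, while Erbb3 and Erbb4 bind Nrg1; Erbb2 has no known ligand of its own and serves as the favoured partner, and Erbb3 has very weak kinase activity. In the heart, neuregulin from the endothelium of small vessels acting on Erbb4 and Erbb2 of cardiomyocytes is known for its role in trabeculation and in the maintenance of adult muscle. Errfi1, also called Mig6, binds the kinase domain of the receptors and inhibits it, and its transcription is known to rise when the pathway is active.

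The deposited values are FPKM, that is, fragments per kilobase of gene length scaled to the number of fragments in the library. Whole fragments could be worked back from them for 19479 of the 19481 rows above 0, and the library totals that follow ranged from 36848184 to 49848438 fragments. The 2 groups stood apart as a whole. The 13 mRNAs encoded by mitochondrial DNA held 80.1% to 86.2% of the summed FPKM in sham and 61.8% to 71.5% in MI/RI, and the summed FPKM of the 9 cardiomyocyte markers found was 3510 to 11500 in sham and 23600 to 34200 in MI/RI. Both labelled groups thus expressed the defining markers of heart muscle. The part of these shifts in the results on the ligands and receptors was not tested beyond the rescalings given at the end. In whole tissue, fewer cells of a type and less RNA per cell cannot be told apart.

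**Figure D1:**
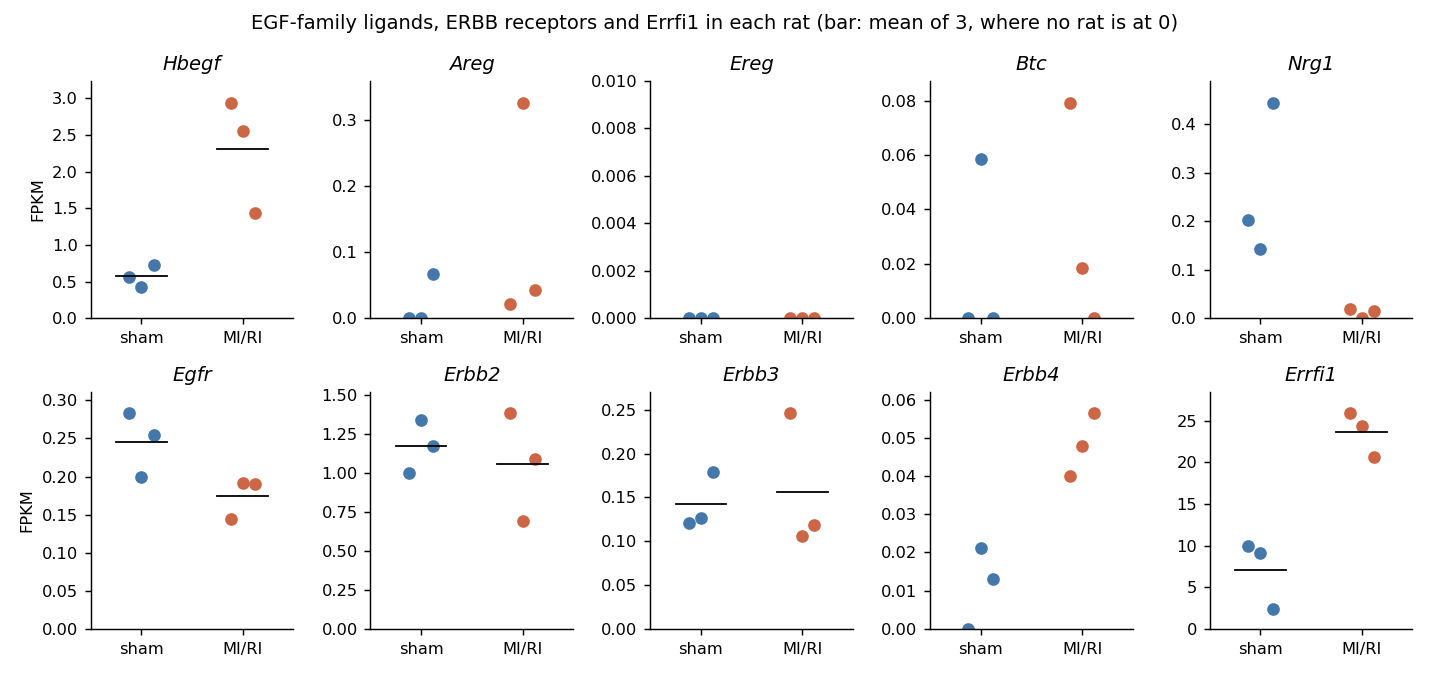
FPKM (y axis, linear, own scale per gene, starting at 0) of the 10 genes in the 3 sham and 3 MI/RI rats. Each point is 1 rat and the bar is the mean of 3, drawn only for genes with no rat at 0. The MI/RI points lie above the sham points for Hbegf, Erbb4 and Errfi1 and below them for Nrg1 and Egfr.

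Of the 10 genes, Hbegf and Errfi1 were higher in MI/RI and Nrg1 was lower by the tests that could reach it. None of the receptors passed a test on the deposited scale. In the limma test on log2(FPKM + 0.1), restricted to genes with a mean of at least 0.5 FPKM over the 6 rats and adjusted by Benjamini-Hochberg over all of them, 3 of the 10 genes could be tested. Of these, Hbegf and Errfi1 were called higher, and 0 were called lower, also at an unadjusted p under 0.05. Over the 10942 genes tested, 25.5% were called higher and 7.36% lower, so a call in the upward direction was common. The other 7 lay under the filter. In the same test without the filter, 9 genes could be tested, of which 2 were called higher (11.4% of 19226 genes) and 1, Nrg1, lower (3.32%). A test of the recovered fragments with limma-voom, added after the data had been seen and limited to genes with a mean of at least 10 fragments, reached 6 of the 10 and again called 2 higher (21.4% of 13717 genes) and Nrg1 lower (7.58%). As plain values, 5 of the 9 genes above 0 had no overlap between the groups, 3 upward and 2 downward, against 23.9% and 11.7% of all 19226 genes above 0. With 3 rats per group, p-values measure the spread between these rats, and the smallest p of an exact permutation test of a single gene is 0.1.

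Hbegf (ENSRNOG00000018646) encodes heparin-binding EGF-like growth factor, a ligand of Egfr and Erbb4. Its FPKM was 0.565, 0.427 and 0.729 in sham rats 1 to 3 and 2.94, 2.55 and 1.44 in MI/RI rats 1 to 3. Every MI/RI rat was above every sham rat, and MI/RI rat 3 was the lowest of its group. The group means were 0.574 ± 0.151 and 2.31 ± 0.775 FPKM (SD, n = 3 each), a 4.02-fold difference of means. The values rest on 56, 50 and 82 fragments in sham and 254, 236 and 126 in MI/RI. The log2 fold change by limma was 1.81 (SE 0.33, 95% interval 1.08 to 2.53, adjusted p = 0.0049). Relative to the median of all genes tested, which itself was 0.29 higher in MI/RI, Hbegf was 1.51 higher on the log2 scale. The call was made in each of the 6 limma fits that left out 1 rat, with log2 fold changes of 1.61 to 2.10. On the recovered fragments the log2 fold change was 1.98 (SE 0.40, limma-voom adjusted p = 0.0036). Without the filter the limma adjusted p was 0.023, and 0.061 to 0.12 when 1 rat was left out as well. In the heart Hbegf is known from several cell types. The 9 endothelial markers tested had a median log2 fold change of -0.21. Of these, 0 were called by limma, where 25.5% of all genes tested were called higher and 7.36% lower. The 2 at an unadjusted limma p under 0.05 moved in opposite directions, Kdr at 0.72 and Tek at -0.55. Limma-voom called 1, Kdr, as higher. The neutrophil and monocyte markers summed to 20.2 to 21.4 FPKM in sham and to 37, 72.4 and 89.8 in MI/RI rats 1 to 3, mostly from S100a8 and S100a9. Of the 6 tested, limma called 3 higher and 1 lower, against 25.5% and 7.36% of all genes tested. The 1 lower was Ccr2 (log2 fold change -1.335, limma adjusted p = 0.026). The cardiomyocyte markers summed to 34200, 24500 and 23600 in the same rats, and centring on them turned Hbegf to -0.33 (limma adjusted p = 0.65).

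Areg, Btc and Ereg, the other Egfr ligands of the chosen gene set, were near or at 0 in both groups. Egf, an Egfr ligand outside that set, measured 0.641, 0.939 and 0.577 FPKM in sham and is described after Nrg1. Areg (ENSRNOG00000002754), which encodes amphiregulin, had 0, 0 and 4 fragments in sham and 1, 16 and 2 in MI/RI, or 0, 0 and 0.0673 against 0.0219, 0.327 and 0.0434 FPKM. MI/RI rat 2 alone carried most of its fragments and the groups overlapped. Its log2 fold change in the fit without the filter was 0.72 (SE 0.49, limma adjusted p = 0.38). Btc (ENSRNOG00000002728), which encodes betacellulin, a ligand of Egfr and Erbb4, had 0, 4 and 0 fragments in sham and 4, 1 and 0 in MI/RI. With so few fragments a change of Btc was not detectable at this depth. Ereg (ENSRNOG00000002771), which encodes epiregulin, is listed at 0 in all 6 rats. So are Mapk3 and Junb, genes that most cells use, so a listing at 0 need not mean that no transcript was present.

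Nrg1 (ENSRNOG00000010392) encodes neuregulin 1, the ligand of Erbb3 and Erbb4. Its FPKM was 0.202, 0.143 and 0.445 in sham and 0.0193, 0 and 0.0143 in MI/RI. The fragments behind these values were 48, 40 and 120 in sham and 4, 0 and 3 in MI/RI. All 3 sham rats were above all 3 MI/RI rats, sham rat 3 was the highest, and MI/RI rat 2 is listed at 0. Over each group, 208 fragments in sham stood against 7 in MI/RI, a 24.1-fold lower rate per library total in MI/RI, with a 95% interval of 11.5 to 60.7 that covers counting error only. Without the filter, limma gave a log2 fold change of -1.62 (SE 0.32, 95% interval -2.39 to -0.86, adjusted p = 0.025) on the log2(FPKM + 0.1) scale, which understates the change of so low a gene. On the recovered fragments it was -4.66 (SE 1.23, 95% interval -7.32 to -2.00, limma-voom adjusted p = 0.014).

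In the FPKM test without the filter, the Nrg1 call needed all 6 rats, as did the calls of Hbegf and Errfi1. Leaving out 1 rat at a time gave limma log2 fold changes of -1.87 to -1.29 without the filter and adjusted p of 0.058 to 0.10, so the call was lost in all 6 such fits; 3 of those 6 fits called no gene at all. Quantile normalization without the filter also ended it, at -1.55 (limma adjusted p = 0.051). On the recovered fragments the call was made in each of the 6, with log2 fold changes of -5.27 to -3.63 and limma-voom adjusted p of 0.022 to 0.042. Without sham rat 3 it was -4.21, and without MI/RI rat 2 it was -3.63. Beside Nrg1, the endothelial markers summed to 238 to 309 FPKM in sham and 250 to 288 in MI/RI. Of the mesothelial markers, 5 were found and 1 passed the filter, and their sum was 3.90 to 6.54 FPKM in sham and 4.55 to 7.80 in MI/RI. The genes of this list did not move together. Msln had 13, 10 and 22 fragments in sham and 1, 0 and 0 in MI/RI, and Upk1b had 10, 0 and 2 against 1, 0 and 0. Wt1, which carried nearly all of the sum, lay at 4.96, 6.45 and 3.64 FPKM in sham and 7.77, 7.08 and 4.55 in MI/RI. Upk3b and Lrrn4 had 1 fragment each, in sham rat 3. The part of the outer layer of the heart in the Nrg1 values was not tested.

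Of the 6 other ligands of the family, Egf (ENSRNOG00000053979), the founding member and also an Egfr ligand, moved in the same direction as Nrg1. Its FPKM was 0.641, 0.939 and 0.577 in sham and 0.0847, 0.311 and 0.229 in MI/RI. The groups did not overlap, and the gene lay just under the filter. Its log2 fold change was -1.46 without the filter (limma adjusted p = 0.0499) and -1.92 on the recovered fragments (SE 0.49, limma-voom adjusted p = 0.012). Leaving out 1 rat at a time ended the former call in all 6 fits (limma adjusted p 0.097 to 0.16) and kept the latter between -2.31 and -1.39, with limma-voom adjusted p of 0.017 to 0.047. Tgfa, an Egfr ligand, had 8 fragments over the sham group and 27 over the MI/RI group, with overlapping groups. Nrg2 had 8 and 4 fragments, Nrg3 had 1 and 0, and Nrg4 had 16 and 33, also with overlap. Epgn is listed at 0 in all 6 rats.

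Among the receptors, Erbb2 (ENSRNOG00000006450) had the highest FPKM in both groups. It measured 0.996, 1.34 and 1.17 in sham and 1.38, 0.691 and 1.09 in MI/RI, with means of 1.17 ± 0.172 and 1.05 ± 0.347 FPKM (SD, n = 3 each). The groups overlapped, and MI/RI rats 1 and 2 were the highest and the lowest of all 6. The log2 fold change was -0.18 with a 95% interval of -0.85 to 0.50 (limma adjusted p = 0.68), an interval that holds no change as well as a decrease of 0.85. Without MI/RI rat 2 it was 0.07.

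Egfr (ENSRNOG00000004332) measured 0.283, 0.2 and 0.254 FPKM in sham and 0.144, 0.191 and 0.190 in MI/RI. The groups did not overlap, although sham rat 2 and MI/RI rats 2 and 3 lay close together. The means were 0.246 ± 0.0423 and 0.175 ± 0.0267 FPKM (SD, n = 3 each), and the exact permutation test gave p = 0.1, the smallest it can give. The change did not pass the tests across all genes, with a log2 fold change of -0.33 without the filter (limma adjusted p = 0.45) and -0.46 on the recovered fragments (95% interval -1.48 to 0.55, limma-voom adjusted p = 0.48). Erbb3 (ENSRNOG00000004964) measured 0.121, 0.126 and 0.179 FPKM in sham and 0.246, 0.106 and 0.118 in MI/RI. Its groups overlapped, and MI/RI rat 1 stood above the other 5. The log2 fold change was 0.05 on the recovered fragments, with a wide 95% interval of -1.19 to 1.30 (limma-voom adjusted p = 0.96). Erbb3 is known to be expressed in Schwann cells. Of their 6 markers tested, 1 was called higher by limma, against 25.5% of all genes tested. The list summed to 11.2 to 20 FPKM in sham and 22.6 to 29.8 in MI/RI, highest in MI/RI rat 1. Most of this sum was Pmp22, at 8.38, 12.5 and 13.4 FPKM in sham and 19.1, 16.0 and 17.2 in MI/RI. Cdh19 alone of the list was lower, with 249 fragments over the sham group and 106 over the MI/RI group.

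Erbb4 (ENSRNOG00000014248), the neuregulin receptor of cardiomyocytes, was the lowest of the receptors. It was at 0, 0.0211 and 0.0131 FPKM in sham and at 0.0399, 0.0479 and 0.0564 in MI/RI. These are 0, 5 and 3 fragments against 7, 9 and 10, and all MI/RI rats were above all sham rats. The ratio of the group rates was 4.01, with a 95% interval of 1.76 to 10.2 that covers counting error only. The limma log2 fold change without the filter was 0.41 (SE 0.14, adjusted p = 0.10). Quantile normalization without the filter called it higher, at 0.525 (limma adjusted p = 0.041), and the gene fell under the fragment minimum of limma-voom. Of the 9 cardiomyocyte markers tested, 7 were called higher by limma, against 25.5% of all genes tested. Their median log2 fold change was 2.28, and the part of this shift in the Erbb4 values was not tested.

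Errfi1 (ENSRNOG00000058186), the inhibitor, had the highest level of the 10 genes in every rat of both groups. It measured 9.91, 9.15 and 2.34 FPKM in sham and 25.9, 24.4 and 20.7 in MI/RI. Sham rat 3 was far below the other sham rats, and every MI/RI rat was above every sham rat. The means were 7.14 ± 4.17 and 23.7 ± 2.65 FPKM (SD, n = 3 each). The limma log2 fold change was 1.96 (SE 0.47, 95% interval 0.91 to 3.01, adjusted p = 0.013), or 1.67 above the median of all genes tested. Without sham rat 3 it was 1.30 and still called (limma adjusted p = 0.016), and leaving out the other rats gave 1.89 to 2.31. The recovered fragments numbered 1802, 1966 and 484 in sham and 4105, 4148 and 3319 in MI/RI, with a log2 fold change of 1.98 (SE 0.45, limma-voom adjusted p = 0.0063). Quantile normalization ended the call at 1.33 (limma adjusted p = 0.086), and centring on the cardiomyocyte markers turned the value to -0.18. Without the filter the limma adjusted p was 0.048, and 0.075 to 0.17 when 1 rat was left out as well.

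**Figure D2:**
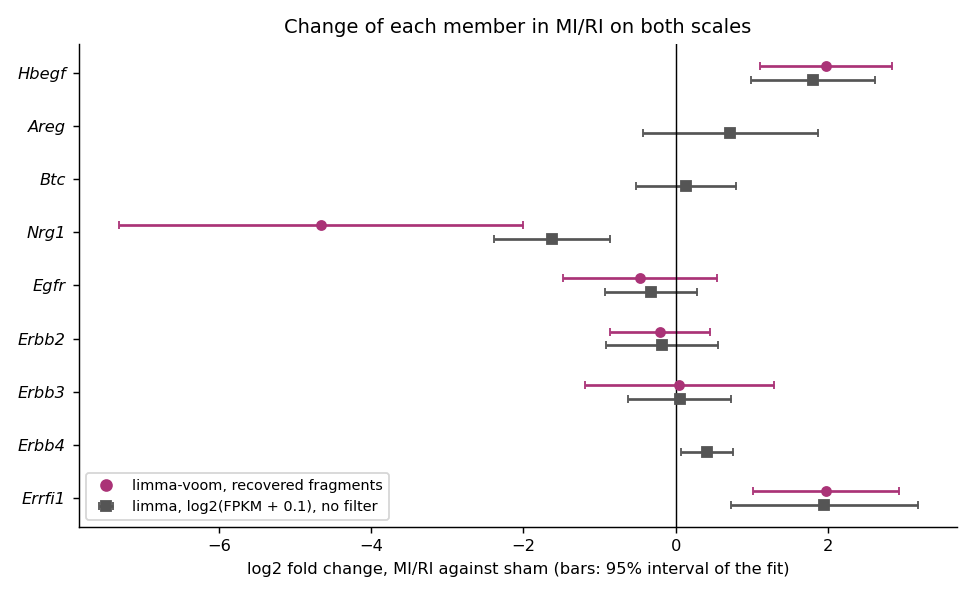
Log2 fold change of MI/RI against sham (x axis) for the 9 genes above 0. Squares show limma on log2(FPKM + 0.1) without a filter, circles show limma-voom on the recovered fragments for the 6 genes with enough of them, and bars are the 95% interval of each fit. Hbegf and Errfi1 lie near 2 on both scales, Nrg1 lies at -1.62 and -4.66, and the intervals of Egfr, Erbb2 and Erbb3 include 0.

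The sequences before the start sites of Hbegf and Errfi1 are shown because these are the ligand and the inhibitor that were called higher together. They are the 250 bases before the annotated start in RefSeq on the build GRCr8, which supplied such a sequence for 7 of the 10 genes; the build behind the deposited values is not given in the sources used here. The Hbegf stretch is chr18:28390221-28390470 on the minus strand and the Errfi1 stretch is chr5:166606591-166606840 on the plus strand. Both are written 5′ to 3′ with matches to the searched motifs in capitals.
Hbegf: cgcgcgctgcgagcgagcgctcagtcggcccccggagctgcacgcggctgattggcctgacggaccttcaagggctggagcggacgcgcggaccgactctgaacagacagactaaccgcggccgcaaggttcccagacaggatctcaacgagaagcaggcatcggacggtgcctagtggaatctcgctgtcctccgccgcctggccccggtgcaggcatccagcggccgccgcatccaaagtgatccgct
Errfi1: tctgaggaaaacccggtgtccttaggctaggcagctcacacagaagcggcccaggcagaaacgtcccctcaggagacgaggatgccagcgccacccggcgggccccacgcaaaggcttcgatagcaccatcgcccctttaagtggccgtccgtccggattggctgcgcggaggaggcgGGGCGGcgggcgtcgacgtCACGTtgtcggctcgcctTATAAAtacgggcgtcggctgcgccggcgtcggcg

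Each stretch was searched on both strands for 5 motifs. The AP-1 motif was written as TGANTCA. The cyclic AMP response element was written as TGACGTCA. A TATA box was searched as TATAAA. A GC box was searched as GGGCGG. The core of the hypoxia response element, which also lies in other motifs, was searched as ACGTG. The capitals of the Errfi1 stretch mark a GC box that begins 72 bases before the start, a hypoxia core on the other strand at 53 bases and a TATA box at 35 bases. The Hbegf stretch held none of the 5. The Areg stretch held the cyclic AMP response element at 91 bases and a TATA box at 61 bases. Of the 7 genes with a sequence, 6 held a GC box, 2 a TATA box, 2 a hypoxia core, 1 the cyclic AMP response element and 0 the AP-1 motif. Among 27457 RefSeq stretches of the same length, 32.4% held a GC box, 13.1% a TATA box, 16.9% a hypoxia core, 1.70% the cyclic AMP response element and 6.36% the AP-1 motif. A match describes the letters in this window only.

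Ordered by FPKM, which is a level per gene length, Errfi1 came first in sham (2.34 to 9.91) and was followed by Erbb2 (0.996 to 1.34) and Hbegf (0.427 to 0.729), with no overlap between these 3. Nrg1 (0.143 to 0.445) overlapped with Hbegf above it and with Egfr (0.2 to 0.283) below it, and Erbb3 (0.121 to 0.179) followed without overlap with Egfr. Areg, Btc, Erbb4 and Ereg all had at least 1 sham rat at 0. In MI/RI the order was Errfi1 (20.7 to 25.9), Hbegf (1.44 to 2.94) and Erbb2 (0.691 to 1.38), again without overlap. Hbegf thus stood below Erbb2 in all sham rats and above it in all MI/RI rats. Egfr (0.144 to 0.191) and Erbb3 (0.106 to 0.246) overlapped, and Nrg1 (0 to 0.0193) was among the lowest, below Egfr and Erbb3 in each MI/RI rat.

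A common library scale cancels from the ratio of 2 FPKM values within a heart, but not wholly once 0.1 FPKM is added to each, which matters for genes as low as Nrg1 and Erbb4. On this log2(FPKM + 0.1) scale, the ratio of Hbegf to Egfr was 0.80, 0.81 and 1.23 in sham and 3.64, 3.19 and 2.41 in MI/RI, a mean difference of 2.13. The ratio of Errfi1 to Egfr was 2.28 higher in MI/RI, at 6.43 ± 0.286 against 4.15 ± 1.18 (SD, n = 3 each). The ratio of Nrg1 to Erbb4, ligand to receptor, was 1.59, 1.0 and 2.27 in sham and -0.23, -0.56 and -0.45 in MI/RI, a mean difference of -2.04. The ratios of Egfr to Erbb4 and of Erbb2 to Erbb4 were lower by 0.74 and 0.59, the latter by 0.34 without MI/RI rat 2. In each of these 5 ratios the groups did not overlap, the two-sided exact permutation p was 0.1 and the value adjusted over the 6 ratios was 0.12, so none could pass the threshold. The ratio of Erbb3 to Erbb2 overlapped between the groups (difference 0.23, exact permutation p = 0.4). Ratios with Erbb4 or Nrg1 depend strongly on the 0.1 FPKM added to each value.

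**Figure D3:**
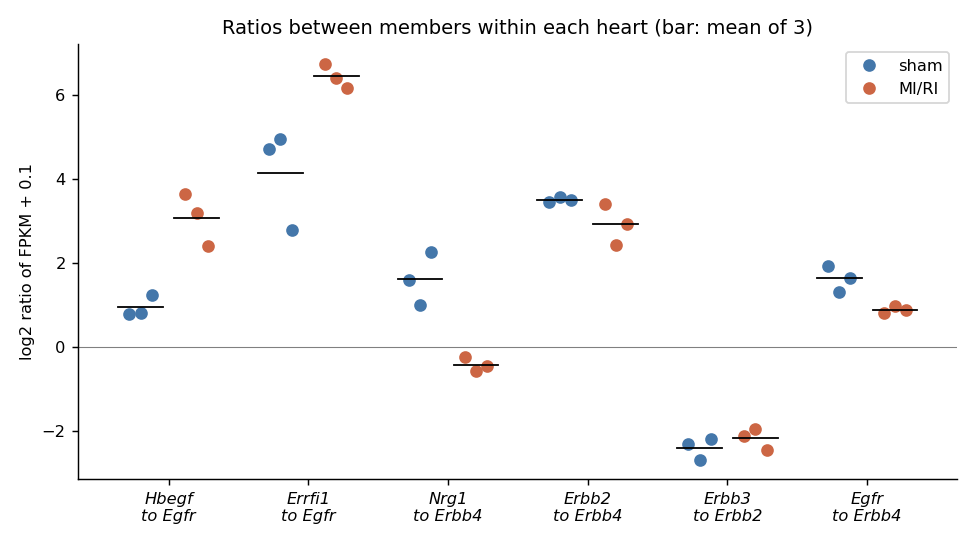
Log2 ratio of FPKM + 0.1 (y axis) for 6 pairs of the genes within each heart, sham in blue and MI/RI in orange. Each point is 1 rat and the bar is the mean of 3. The pairs Hbegf to Egfr and Errfi1 to Egfr lie higher in all MI/RI rats, and Nrg1 to Erbb4 lies lower in all of them, below 0.

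The rest of the pathway was followed in 69 other genes, of which 68 were found and 52 passed the filter. Limma called 23 of the 52 higher and 2 lower, against 25.5% and 7.36% of all genes tested, and 27 did not pass, with a median log2 fold change of 0.62 against 0.29 over all genes tested. The 2 genes called lower were the docking protein Gab1 (-0.69, SE 0.22, limma adjusted p = 0.038) and the catalytic PI3K subunit Pik3ca (-0.68, SE 0.23, limma adjusted p = 0.043). Both calls were lost in each fit that left out 1 rat and with the replicate number as a block, where 0 were called lower and 24 higher, Jun being the 1 gene gained.

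The proteases that release the ligands and their partners showed no call. Limma called 0 of 7 tested and limma-voom 0 of 8. In each test 1 was at an unadjusted p under 0.05, Adam19 (limma log2 fold change -0.87, limma adjusted p = 0.07), named here after its value was seen. Adam17, the main protease for several Egfr ligands, had a log2 fold change of 0.08 (limma adjusted p = 0.84). Of 9 adaptors, 3 were called higher, Grb2 (1.08), Crk (1.04) and Ptpn11 (0.87), which link the receptors to Ras. That share is near the 25.5% of all genes tested that were called higher. Of 12 members of the kinase chains, 5 were called higher, against the same 25.5%, led by Map2k2 (1.40), Akt1 (1.13) and Hras (1.105), which encode an ERK kinase, a target of PI3K and a Ras protein.

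Attenuators of receptor signalling were called higher in 6 of 13 cases, against 25.5% of all genes tested, and lower in 0, where 7.36% of all genes were lower. Socs3, an inhibitor of cytokine receptors, measured 0.947, 1.40 and 2.89 FPKM in sham and 22.5, 13.5 and 21.8 in MI/RI (log2 fold change 3.49, SE 0.38, limma adjusted p = 0.00095). Spry4, a Sprouty inhibitor of the Ras-ERK chain, measured 0.824, 0.667 and 0.312 in sham and 6.99, 6.72 and 3.87 in MI/RI (3.12, SE 0.35, limma adjusted p = 0.0011), and its relative Spry2 rose by 1.47 on the log2 scale (limma adjusted p = 0.0039). In these 3 genes every MI/RI rat was above every sham rat. The 7 that did not pass had log2 fold changes from -0.53 (Rnf41, limma adjusted p = 0.13) to 0.60 (Spred2, limma adjusted p = 0.14). Among them were Cblb and Lrig1, which promote receptor breakdown and are named here outside the rule for called genes. Their FPKM was 1.11 to 2.24 and 1.43 to 2.47 in sham and 1.2 to 2.23 and 1.88 to 3.02 in MI/RI.

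Growth factor response genes, which are transcribed early after ERK activation and after many other stimuli, were called higher in 9 of 11 cases, against 25.5% of all genes tested, with a median log2 fold change of 2.09. Fos, which encodes a subunit of AP-1, measured 0.611, 0.530 and 0.420 FPKM in sham and 50.7, 8.74 and 9.81 in MI/RI (log2 fold change 4.74, SE 0.56, limma adjusted p = 0.0014). Egr1, a zinc finger transcription factor, measured 1.78, 1.15 and 1.21 in sham and 64.7, 22.5 and 21.4 in MI/RI (4.44, limma adjusted p = 0.00047). MI/RI rat 1 was the highest of all rats in both genes. Myc, a transcription factor of cell growth, lay at 11.5 to 13 in all MI/RI rats against 0.936 to 1.91 in sham (3.18, limma adjusted p = 0.00032). The 2 genes of this list that were tested by limma and did not pass were Jun (1.12) and Etv5 (0.61).

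**Figure D4:**
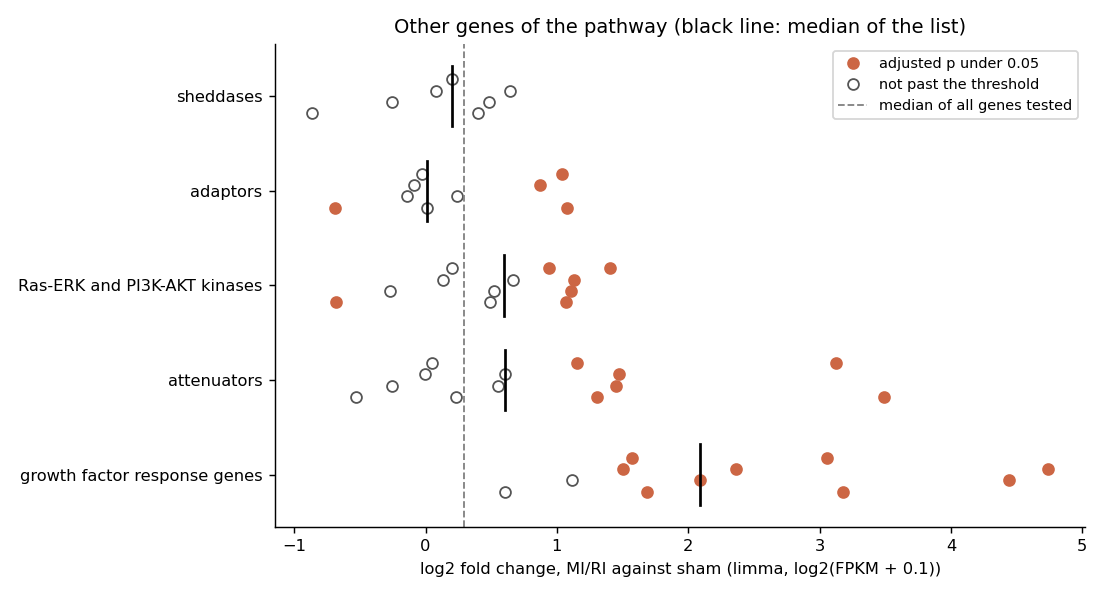
Limma log2 fold change of MI/RI against sham (x axis) for each tested gene of 5 lists of the pathway (y axis). Filled points passed an adjusted p under 0.05, open points did not, the black line is the median of the list and the dashed line the median of all genes tested at 0.29. Response genes have a median of 2.09, while the sheddases, at 0.20, hold no filled point.

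By the likeness of their profiles over the 6 rats, the genes nearest to Hbegf on the log2(FPKM + 0.1) scale were Nifk, Cited2 and Ifrd2 and 2 genes without a symbol, ENSRNOG00000068195 and ENSRNOG00000007821, with Pearson's r of 0.993 to 0.998. Cited2, a transcriptional co-regulator induced by low oxygen, had means of 5.12 FPKM in sham and 11.7 in MI/RI. The genes nearest to Erbb4 were Vcan, Trmt61a, Fam3c, Zpr1 and Ltbr, with r of 0.987 to 0.996, although the Erbb4 profile rests on at most 10 fragments a rat. These correlations are descriptions over 6 samples that share their grouping and library scale, chosen as the highest among 10942 genes.

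The values of the 3 genes that passed the filter were compared across 6 scalings because the share of mitochondrial mRNAs differed between the groups. Hbegf was higher in MI/RI by 1.09 to 2.01 on the log2 scale in 5 of them and was called in each of the 5 (limma adjusted p 0.0028 to 0.038). With the mitochondrial mRNAs left out and no filter, neither it nor Errfi1 was called (limma adjusted p 0.091 and 0.11). With the filter, Errfi1 was higher by 1.18 to 2.15 in the same 5 and was called in 4. With values centred on the cardiomyocyte markers, both turned to a lower value, at -0.33 for Hbegf and -0.18 for Errfi1, with neither called (limma adjusted p 0.65 and 0.74); relative to that scale the median of all genes lay at -1.84. Their difference from the cardiomyocyte markers thus did not pass the test, while both lay 1.35 to 1.74 above the median gene in all 6 scalings. Erbb2 was below the median gene in all 6, by 0.20 to 0.48, and its value turned to 0.0056 with rescaling to TPM. These distances are largely fixed in advance. Neither centring can change them, and TPM and the rescaling without mitochondrial mRNAs can only through the added 0.1 FPKM. Quantile normalization could, and gave 1.74 for Hbegf, 1.35 for Errfi1 and -0.205 for Erbb2. Centred on the cardiomyocyte markers, Erbb2 was called lower, at -2.31 (limma adjusted p = 0.0023). With the mitochondrial mRNAs left out of the totals, Erbb2 was lower by 0.90 on the FPKM scale (limma adjusted p = 0.076) and by 0.99 on recovered fragments (limma-voom adjusted p = 0.028), while Nrg1 was at -5.39 on recovered fragments (limma-voom adjusted p = 0.0067).

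**Figure D5:**
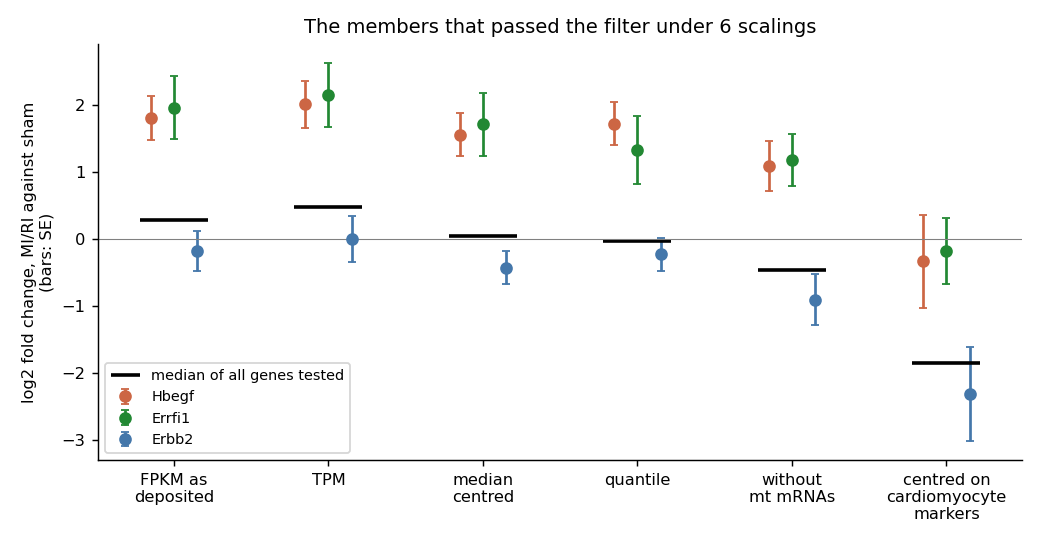
Limma log2 fold change of MI/RI against sham (y axis, bars are the SE) of Hbegf, Errfi1 and Erbb2 under 6 scalings of the same table (x axis); the black bar is the median of all genes tested. Hbegf and Errfi1 lie above the black bar and Erbb2 below it throughout. Apart from the effect of the added 0.1 FPKM, only quantile normalization could change this distance. The position of Hbegf and Errfi1 against 0 changes with centring on the cardiomyocyte markers.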

How the data were processed

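Myocardium of 3 sham and 3 MI/RI rats was sequenced with a stranded total RNA kit. The authors deposited 1 table of FPKM values. The submitters' processing notes name STAR and HTSeq; versions, genome build and strand setting are not given in the sources used here. The table held 30452 rows, 7092 without a symbol; rows of the same symbol were summed.

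The test was limma 3.58.1 in R 4.3.3 on log2(FPKM + 0.1) (trend, Benjamini-Hochberg, threshold 0.05), in genes with a mean of at least 0.5 FPKM. FPKM is a whole number of fragments divided by gene length and library total, so fragments were recovered as the smallest whole numbers that give whole lengths (relative tolerance 3e-09); they cover 99.7% to 99.9% of each inferred total. A common factor could be missed in genes with few fragments. FPKM being shares, fewer mitochondrial mRNAs raise all other values.

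Rats with the same replicate number deviated together weakly (r = 0.203, 0.117 and 0.118), and of the unlike numbers sham 3 and MI/RI 2 also had 0.12. The labels do not say that rats were paired. A fit with the replicate number as a block was therefore run only as an alternative. The main fit and the exact tests are unpaired. Steps were tested on simulated data. The 10 genes, the gene lists and the rule for named genes (the 3 called with the largest change per list and direction) were chosen with earlier results of these data known; the fits on fragments, and those that combine no filter with another setting, were added after the data were seen. Pln, Cldn5 and Krt19 were not analysed here.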

Additional observations from a re-analysis of the deposited data

How the results depend on the processing

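With the filter of the main fit, the counts of called genes moved with scaling more than with any rat. Without that filter, leaving out 1 rat took the counts of all genes to 0 in 3 of the 6 fits. Of the 10 genes, 2 were called higher, but 1 with a filter at 5 FPKM, quantile normalization or an adjusted p under 0.01, and 0 when centred on the cardiomyocyte markers; 0 were called lower, but 1 without the filter, by that centring and on recovered fragments, and 2 on fragments with totals without mitochondrial mRNAs. With the filter, leaving out 1 rat changed neither count. Without it, Hbegf, Errfi1 and Nrg1 lost their calls in each of the 6 such fits (limma adjusted p 0.058 to 0.17). Of the other pathway genes, 23 were called higher, but 13 with a filter at 5 FPKM, 10 without mitochondrial mRNAs (13 on fragments) and 3 by cardiomyocyte centring; 2 were called lower, but 1 without the filter or the trend, 0 with a filter at 5 FPKM, TPM, an adjusted p under 0.01 or the replicate block, 4 by median centring, 5 by quantiles, 6 without mitochondrial mRNAs (13 on fragments) and 33 by cardiomyocyte centring, and 0 to 0 when 1 rat was left out. Of all genes, 2790 were higher and 805 lower; the pairs of counts were 1441 and 1559 by quantiles, 793 and 2857 without mitochondrial mRNAs (851 and 4348 on fragments), 37 and 8574 by cardiomyocyte centring, 1185 and 211 at an adjusted p under 0.01, 3449 and 504 by TPM, 2020 and 1554 by median centring and 1892 and 166 with a filter at 5 FPKM. With the filter, leaving out 1 rat gave 1528 to 2557 higher (1528 without sham rat 3) and 309 to 881 lower (309 without sham rat 2, 359 without sham rat 3). Without the filter, 2198 were higher and 639 lower with all rats. These became 0 and 0 without sham rat 2, sham rat 3 or MI/RI rat 2, and 8 and 2 without MI/RI rat 3. They were 227 and 31 without MI/RI rat 1, and 1458 and 578 without sham rat 1. Scaling without the filter gave 848 and 946 by quantiles and 502 and 1915 without mitochondrial mRNAs. The share of calls that were higher was 77.6%, 87.3% by TPM, 56.5% by median centring, 48.0% by quantiles, 21.7% without mitochondrial mRNAs and 0.43% by cardiomyocyte centring. Signs turned for Hbegf (-0.33) and Errfi1 (-0.18) by cardiomyocyte centring, and for Erbb2 by TPM (0.0056) and without MI/RI rat 2 (its log2 fold change ran from -0.38 to 0.074 when 1 rat was left out). Mean ratio differences with a pseudocount of 1 were 1.13 for Hbegf to Egfr, -0.36 for Nrg1 to Erbb4, -0.14 for Erbb2 to Erbb4 and -0.14 for Egfr to Erbb4; with 0.01 the last 3 were -5.25, -1.77 and -2.04. The replicate block (pairing by number) ended the calls of the 2 lower pathway genes, Gab1 and Pik3ca, added Jun to the higher ones (24) and changed no call among the 10 genes; it called 3085 higher and 895 lower, of which 2740 and 764 were also called without it. The cause of these shifts was not tested. Areg, Btc and Erbb4, with a mean under 10 fragments over the 6 rats, are limited by depth. Ereg is listed at 0 in all 6 rats, which need not mean that no transcript was present. The 3 rats per group limit any exact test to a p of 0.1 or more.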

Other observations

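The filter on low values decides which of these genes can be seen at all. With a mean of at least 0.5 FPKM, the ligand with the largest relative decrease, Nrg1 (208 recovered fragments over the sham rats and 7 over the MI/RI rats), and the founding ligand Egf (488 and 115 fragments) are left out, although both passed limma-voom on the recovered fragments at adjusted p of 0.014 and 0.012. The response genes Egr2 and Egr3 are also under that filter. They had log2 fold changes of 4.51 and 4.35 by limma-voom on fragments (adjusted p = 0.0031 and 0.012). In either gene no sham rat overlapped with an MI/RI rat. Etv4 and Dusp4 of the same list were under the filter too. Neither passed limma-voom, with log2 fold changes of -1.17 and -0.12 (limma-voom adjusted p = 0.22 and 0.89). Mapk3, which encodes one of the ERK kinases, and the AP-1 gene Junb are listed at 0 in all 6 rats.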
